A study of Homo sapiens with 4 samples.

Results

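The WNT feedback and stem cell genes are 10 genes of the 60612 in the deposited expression table of one gastric cancer cell line: AXIN2, LGR4, LGR5, RNF43, ZNRF3, NKD1, TCF7, TCF7L2, SOX9 and ASCL2. They were matched by gene symbol, and each symbol was found. They were picked by name as WNT targets, feedback regulators and stem cell markers, with earlier results from the same 4 libraries known. Their levels in the ZSCAN18 and empty vector libraries are therefore given as a description, with no p-value; a single count of members past the threshold of the fit across all genes is printed beside its background and supports nothing.

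The series measured RNA in NCI-N87, an established human gastric carcinoma line with an amplified ERBB2 gene, grown in RPMI medium with fetal bovine serum, penicillin and streptomycin. In 2 libraries the cells carried PLVX-IRES-Puro-ZSCAN18, a vector that expresses the zinc finger protein ZSCAN18 together with puromycin resistance. In the other 2 they carried PLVX-IRES-Puro without an insert. Both groups had the vector for 5 days, the last 4 of them under puromycin. The times of vector and drug are thus equal, and the ZSCAN18 insert is the difference that the labels name. Other differences between the cultures of the groups cannot be told apart from it. Whether the cells were a pool or a clone, and whether the libraries of a group came from separate cultures, the sources used here do not say. P-values then measure only the spread between these libraries, which may be technical. The 2 ZSCAN18 columns of the table carry another name and were given their group by elimination; the numbers 1 and 2 are those of the columns.

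In WNT signalling, a secreted WNT protein binds a Frizzled receptor and an LRP co-receptor, the destruction complex of AXIN, APC and GSK3 is held back, and β-catenin accumulates and joins TCF/LEF proteins on DNA. Several genes switched on this way code for brakes on the same pathway, so their RNA is widely read as a sign of pathway output: AXIN2 rebuilds the destruction complex, RNF43 and ZNRF3 remove Frizzled from the cell surface, and NKD1 acts on Dishevelled. In the stomach and intestine the pathway maintains the stem cells of glands and crypts, where LGR5 and ASCL2 are known markers.

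TCF/LEF proteins bind DNA at a short core with some freedom in its last letters. The RefSeq promoters of the members (GRCh38.p14, 250 bases before to 50 after a start site) were searched on both strands for 4 forms of it. The form CTTTGAT was present in 2.62% of all 35116 promoters of this length in the table. The form CTTTGAA was present in 4.43% of those promoters. The form CTTTGTT was present in 5.20% of those promoters. The form CTTTGTA was present in 2.77% of those promoters. Of the 10 members, 4 matched the promoter table, TCF7, TCF7L2, LGR4 and RNF43, with 8 promoters between them. A core was found in 2 of the 8, while 13.8% of all promoters in the table held at least 1 form. Both matches were of the third form, and both lay at an internal start site of a TCF gene, which is why these windows are shown. The TCF7 window is chr5:134123533-134123609, plus strand, upstream of the second listed start. The core lies on its minus strand, at positions −50 to −44 from the start, and is printed as its reverse complement. The TCF7L2 window is chr10:113126465-113126541, plus strand, with the core at positions −133 to −127 from the second listed start. Capitals mark the core, and a match is a description of the letters, not of binding.
TCF7: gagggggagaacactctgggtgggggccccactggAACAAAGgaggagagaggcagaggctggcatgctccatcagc
TCF7L2: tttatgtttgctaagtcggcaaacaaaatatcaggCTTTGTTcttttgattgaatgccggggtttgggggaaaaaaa
Neither window overlaps an exon of its own gene in GENCODE release 29, and exons of other genes were not checked. The 6 promoters of LGR4 and RNF43 and of the other TCF7 and TCF7L2 starts held none of the 4 cores, which says only that these letters are not in those windows.

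All levels below are the FPKM that the authors deposited, that is, fragments per kilobase of transcript divided by library size; an FPKM of 0.0001 stands for no signal. Depths were estimated at 23100000 to 24600000 fragments a library from single-exon genes. The most common product of FPKM and length in kilobases between 0.03 and 0.06 was taken as 1 fragment. The depths rest on that assumption and on this preset window, which bounds them. Counting error at the lowest depth is 20.8% for a 1 kb transcript with FPKM 1. ZSCAN18 itself stood at 116 and 112 with its vector and at 0.108 and 0.144 with the empty one. Of 8 markers of gastric epithelium, 6 were above an FPKM of 1 in every library, and TFF1 and MUC1 were not. Their sum ran from 3694 to 3866 with ZSCAN18 and from 4210 to 4451 without, and its part in the results below was not tested. No defining marker of fibroblasts, leukocytes or endothelium reached 1 in every library, and the highest value was 1.46 for COL1A1, with ZSCAN18. The summed level of the 5 fibroblast markers was 1.71 to 2.20 with ZSCAN18 and 0.741 to 1.63 without, that of 4 leukocyte markers 0.679 to 0.738 and 0.363 to 1.41, and that of 3 endothelial markers 0.0633 to 0.119 and 0.121 to 0.158.

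Across the members, the ZSCAN18 libraries lay below the empty vector libraries for AXIN2, ZNRF3, NKD1, TCF7 and, by a small margin, RNF43. TCF7L2, LGR4 and SOX9 overlapped between the groups, and LGR5 and ASCL2 were at or near no signal. The 8 members that reached FPKM 1 in 2 or more libraries had a median difference of −0.36 on the log2(FPKM + 1) scale, with 7 below 0 and 1 above. The same median over all 11822 genes that met this filter was 0.04. Of the 8, 5 lay lower in both ZSCAN18 libraries and 0 lay higher, while among all tested genes 24.4% lay lower without overlap and 35.8% higher. As the members were chosen from known names with results of this comparison in view, nothing is read from these counts. In bulk RNA, fewer cells expressing a gene and less RNA per cell cannot be told apart.

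**Figure D1:**
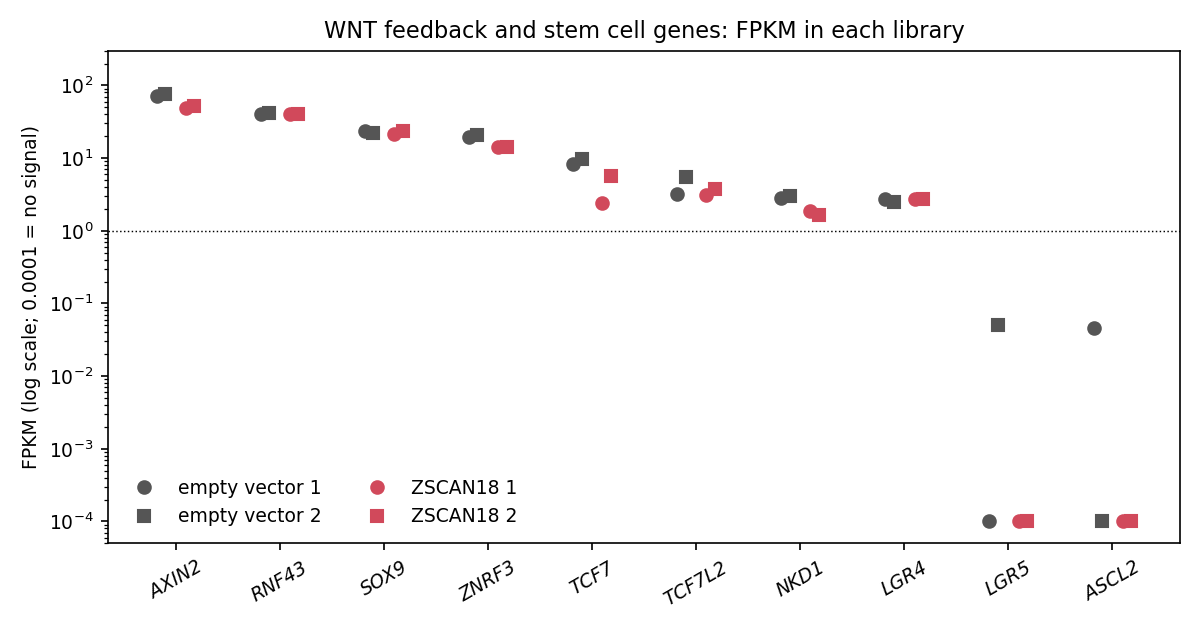
FPKM of the 10 members on a log axis, 1 point per library (grey, empty vector; red, ZSCAN18; circles and squares, the 2 libraries of a group), ordered by mean level with the empty vector; the dotted line is an FPKM of 1. AXIN2, ZNRF3, NKD1 and TCF7 lie lower in both ZSCAN18 libraries, and LGR5 and ASCL2 lie far under the line.

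AXIN2 and NKD1 are the feedback genes that act inside the cell. AXIN2 (ENSG00000168646, chr17:65528563-65561648, minus strand, GRCh38) is a scaffold of the β-catenin destruction complex and a direct WNT target. It was at 49.0 and 52.5 FPKM in the ZSCAN18 libraries and at 72.2 and 75.6 in the empty vector libraries. Both ZSCAN18 libraries lay below both empty vector libraries, and the gap between the groups was several times the distance between libraries of a group. The means were 50.8 ± 2.50 and 73.9 ± 2.45 (SD, n = 2 each), 31.3% lower with ZSCAN18, and the difference was −0.53 on the log2(FPKM + 1) scale (SE 0.060). AXIN2 was nonetheless among the abundant transcripts in either group, above 94.7% of the tested genes with ZSCAN18 and above 96.4% in the empty vector libraries.

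AXIN1, the paralog that is made constitutively and does the same scaffolding work, was at 7.22 and 8.71 with ZSCAN18 and at 7.98 and 7.67 without. These values overlap. The FPKM ratio of AXIN2 to AXIN1 within a library was thus 6.78 and 6.03 with ZSCAN18 and 9.05 and 9.87 in the empty vector libraries, so AXIN2 was the main AXIN transcript per length in all 4 libraries.

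NKD1 (ENSG00000140807, chr16:50548396-50649249, plus strand), an inhibitor that binds Dishevelled, was at 1.85 and 1.67 FPKM with ZSCAN18 and at 2.83 and 2.97 in libraries with the empty vector. The groups did not overlap. The means were 1.76 ± 0.132 and 2.90 ± 0.0985 (SD, n = 2 each), a ratio of 0.607, and the difference was −0.50 on the log2(FPKM + 1) scale (SE 0.084), which understates a ratio at so low a level. Its paralog NKD2 was at 0.878 and 0.702 with ZSCAN18 and at 1.24 and 1.20 without. Both NKD genes were lower in both ZSCAN18 libraries, and the ratio of NKD1 to NKD2 overlapped between the groups, at 2.11 and 2.37 against 2.28 and 2.48.

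The membrane E3 ubiquitin ligases RNF43 and ZNRF3 mark Frizzled receptors for removal and are paralogs that can stand in for each other. ZNRF3 (ENSG00000183579, chr22:28883572-29057488, plus strand) was at 14.2 and 14.1 FPKM with ZSCAN18 and at 19.7 and 20.7 in libraries with the empty vector. The groups lay far apart next to the spread within either. The means were 14.2 ± 0.128 and 20.2 ± 0.680 (SD, n = 2 each), a ratio of 0.701, and the difference was −0.48 on the log2(FPKM + 1) scale (SE 0.056).

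RNF43 (ENSG00000108375, chr17:58353676-58417595, minus strand) was at 40.6 and 40.8 FPKM with ZSCAN18 and at 40.96 and 41.96 in libraries with the empty vector. The groups did not overlap, but the nearest libraries were almost level. The difference of −0.03 on the log2(FPKM + 1) scale was smaller than its SE of 0.046. RNF43 overlaps TSPOAP1-AS1 on the opposite strand, at 2.42 and 2.62 with ZSCAN18 and 1.96 and 1.95 without. The sources used here do not say if reads were counted by strand, so reads in such overlaps may belong to either gene.

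RNF43 was the more abundant ligase in every library. ZNRF3 made up 26.0 and 25.6% of the summed FPKM of the pair with ZSCAN18 and 32.5 and 33.0% in the empty vector libraries, and the sum itself was 54.8 in both ZSCAN18 libraries and 60.7 and 62.6 in the others. A ratio of a pair of genes within a library does not depend on library scaling. RNF43 was taken as the denominator after its values were seen, because it was nearly level. The FPKM ratio of AXIN2 to RNF43 was 1.21 and 1.29 with ZSCAN18 and 1.76 and 1.80 in the empty vector libraries. That of NKD1 to RNF43 was 0.0457 and 0.0409 against 0.0691 and 0.0708. A ratio of this kind shows unequal levels, not that RNF43 did not change.

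**Figure D2:**
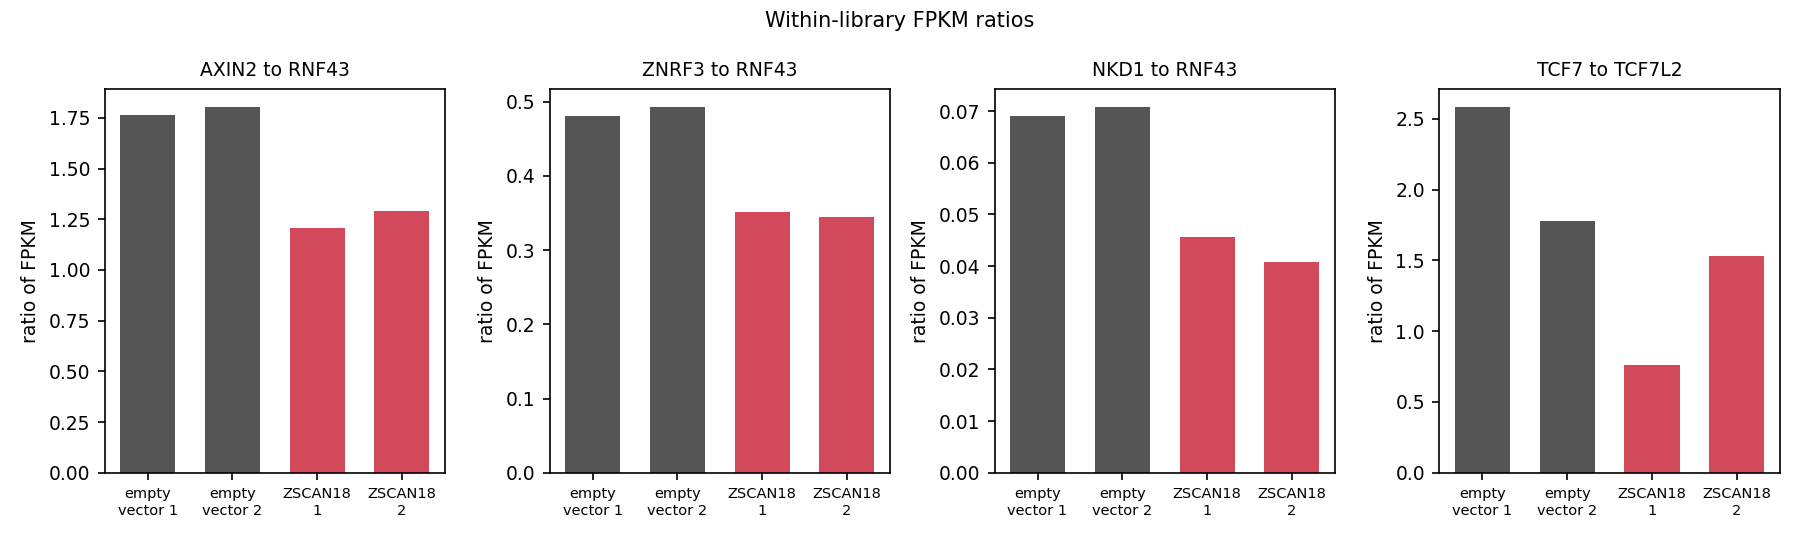
Ratio of FPKM within each library (bars from 0; grey, empty vector; red, ZSCAN18) for AXIN2, ZNRF3 and NKD1 to RNF43 and for TCF7 to TCF7L2. The first 3 ratios are lower in both ZSCAN18 libraries with little spread, while the TCF7 to TCF7L2 ratio is 0.764 in one ZSCAN18 library and 1.53 in the other.

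LGR4, LGR5 and LGR6 are receptors for R-spondins, secreted proteins that draw the ligases away from Frizzled and so raise WNT sensitivity. LGR4 (ENSG00000205213, chr11:27365961-27472790, minus strand) was at 2.73 and 2.70 FPKM with ZSCAN18 and at 2.76 and 2.52 in libraries with the empty vector. The groups overlapped, and the difference was 0.03 on the log2(FPKM + 1) scale (SE 0.079). LGR5 (ENSG00000139292, chr12:71439798-71586310, plus strand), a marker of WNT-driven stem cells, was at 0.0001 in both ZSCAN18 libraries and in 1 empty vector library, and at 0.0510 in the other. It is listed without signal in 3 of 4 libraries and no fold is given. TSPAN8, which overlaps LGR5 on the opposite strand, was at 17.2 and 16.6 with ZSCAN18 and at 14.2 and 15.2 without.

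LGR6, a family member outside the 10 genes, carried most of the family's signal. It was at 3.86 and 4.11 FPKM with ZSCAN18 and at 6.12 and 6.42 in the empty vector libraries, a difference of −0.54 on the log2(FPKM + 1) scale (SE 0.071) that did not pass the test (limma, adjusted p = 0.0576). It passed only under median-of-ratios scaling and quantile normalization (adjusted p = 0.0488 and 0.0493) among the alternatives tried. LGR4 made up 41.4 and 39.7% of the family's summed FPKM with ZSCAN18 and 31.0 and 28.0% in libraries with the empty vector. The sum of LGR4, LGR5 and LGR6 was 6.59 and 6.82 with ZSCAN18 and 8.88 and 8.995 without.

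TCF7 and TCF7L2 code for the DNA-binding partners of β-catenin, and TCF7 is itself a known WNT target. TCF7 (ENSG00000081059, chr5:134114681-134151865, plus strand) was at 2.40 and 5.76 FPKM with ZSCAN18 and at 8.33 and 9.66 in the empty vector libraries. Both ZSCAN18 libraries were lower, but they differed from each other by more than the second of them differed from the nearest empty vector library. The difference of −1.06 on the log2(FPKM + 1) scale (SE 0.361) was the farthest from 0 among the 8 tested members, and it was −0.56 without ZSCAN18 library 1. The table lists 24 transcripts for TCF7, and SKP1, a neighbour overlapping on the opposite strand, was at 16.1 and 13.3 with ZSCAN18 and at 16.1 and 13.1 without.

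TCF7L2 (ENSG00000148737, chr10:112950247-113167678, plus strand) was at 3.14 and 3.77 FPKM with ZSCAN18 and at 3.23 and 5.44 in libraries with the empty vector. The groups overlapped. The difference of −0.23 on the log2(FPKM + 1) scale (SE 0.236) was about as large as its error, and it turned to 0.07 without empty vector library 2. The other family members were low, with TCF7L1 at 0.177 and 0.145 against 0.421 and 0.295, and LEF1 at 1.04 and 0.706 against 0.792 and 0.785. TCF7 made up 35.5 and 55.5% of the summed FPKM of the 4 TCF/LEF genes with ZSCAN18 and 65.2 and 59.7% in the empty vector libraries. TCF7L2 exceeded TCF7 in ZSCAN18 library 1 and lay below it in the other 3 libraries.

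SOX9 and ASCL2 are transcription factors of stem and progenitor cells. SOX9 (ENSG00000125398, chr17:72121020-72126416, plus strand), a WNT target in intestinal crypts, was at 21.5 and 23.9 FPKM with ZSCAN18 and at 23.8 and 22.1 in libraries with the empty vector. The groups overlapped fully, with a difference of −0.02 on the log2(FPKM + 1) scale (SE 0.079). ASCL2 (ENSG00000183734, chr11:2268495-2270952, minus strand), a factor of LGR5-positive stem cells, was at 0.0001 in 3 libraries and at 0.0453 in empty vector library 1. At the estimated depth that value is about 2 fragments, so no difference was detectable.

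Ordered by mean FPKM with the empty vector, AXIN2 came first, then RNF43, SOX9, ZNRF3, TCF7, TCF7L2, NKD1 and LGR4, with LGR5 and ASCL2 near no signal. SOX9 at 22.9 ± 1.23 and ZNRF3 at 20.2 ± 0.680 (SD, n = 2 each) stood close there without overlap, as did NKD1 at 2.90 ± 0.0985 and LGR4 at 2.64 ± 0.167. TCF7L2 at 4.33 ± 1.56 did not differ from NKD1 beyond its own spread. With ZSCAN18 the order of the first 4 was the same, and the last places differed: LGR4 at 2.72 ± 0.0188 lay above NKD1 at 1.76 ± 0.132. TCF7 and TCF7L2 could not be ordered there, since TCF7 at 4.08 ± 2.37 spread across TCF7L2 at 3.45 ± 0.444.

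limma on log2(FPKM + 1), with Benjamini-Hochberg adjustment of the p-values of all 11822 tested genes, called 0.795% of genes higher and 0.973% lower at an adjusted p under 0.05. Of the 8 members in this fit, 1 lay past that threshold, AXIN2, on the lower side, and 0 on the higher side, and none did when any 1 library was left out. The members were chosen with this comparison known, so nothing is read from this count. An exact permutation test of 2 against 2 libraries could not give a p below 0.333.

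**Figure D3:**
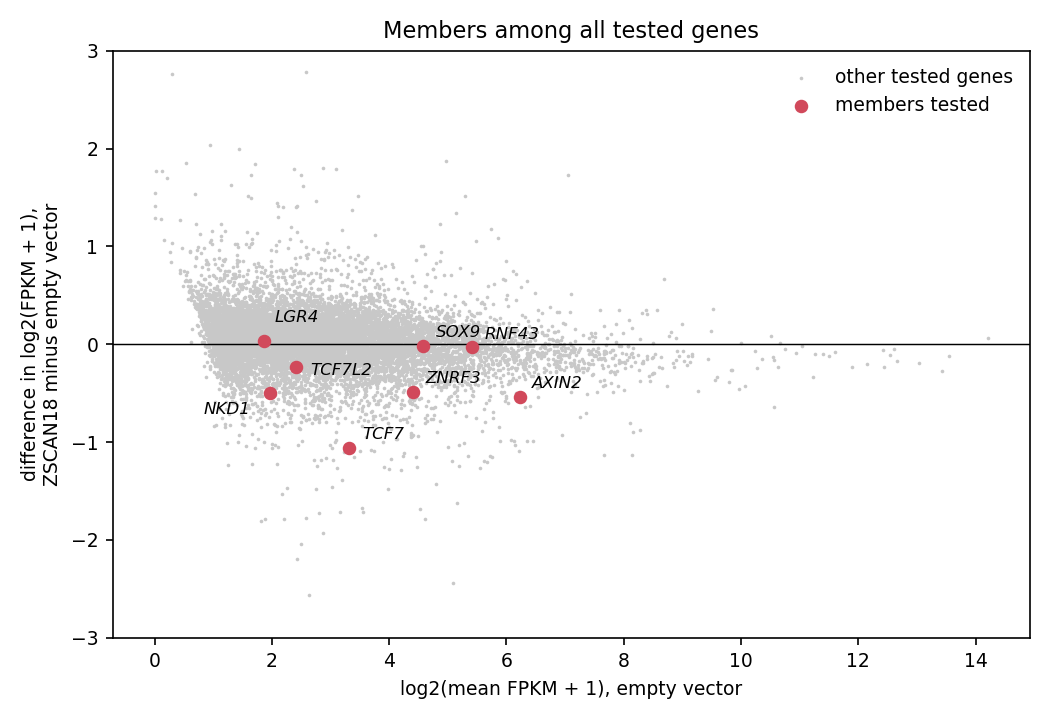
Difference in log2(FPKM + 1), ZSCAN18 minus empty vector, against log2(mean FPKM + 1) with the empty vector, for all tested genes (grey) and the 8 tested members (red); ZSCAN18 and 2 further genes beyond ±3 lie outside the axis. TCF7, AXIN2, NKD1 and ZNRF3 sit between −1.06 and −0.48, and LGR4, SOX9 and RNF43 sit near 0.

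The rest of the pathway was described through 7 lists of genes by role, with the members left out. Of 142 symbols, 138 were in the table and 82 were tested. The symbols not found, AES, WISP1, TROY and TIKI1, are older names of TLE5, CCN4, TNFRSF19 and TRABD2A, which the lists also hold. WNT11, BAMBI, AQP5 and KLF5 fell and 0 genes rose by the limma test, so 4.88% were called lower against 0.973% of all tested genes. At an unadjusted p under 0.05 there were 27 of the 82, 15 higher and 12 lower, while 26.8% of all tested genes lay under it. The balance depended on the scaling, with 9 higher and 19 lower under median-of-ratios scaling and 11 and 17 under quantile normalization. In all, 39 of the 82 were above 0 and 43 below, with a median of −0.01 on the log2(FPKM + 1) scale, while 57.1% of all tested genes were above 0. The split was 32 above and 50 below under median-of-ratios scaling, where 50.3% of all tested genes were above 0, and 34 and 48 under quantile normalization. All 4 calls were lost when any 1 library was left out, with adjusted p-values from 0.146 to 0.208. The lists too were drawn up with earlier results known, so the share called is a description.

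Among 8 tested ligand and secretion genes, 1 fell. WNT11, a ligand best known for signalling without β-catenin, was at 61.9 and 64.9 FPKM with ZSCAN18 and at 120 and 123 in the empty vector libraries. It was the most abundant WNT gene, and it fell by 0.93 on the log2(FPKM + 1) scale (SE 0.049, limma, adjusted p = 0.0231). The antisense gene AP000785.1 was at 2.21 and 2.30 against 3.22 and 3.50. WNT9A was at 6.91 and 8.39 with ZSCAN18 and at 3.82 and 4.47 without, and WNT10A at 1.14 and 1.18 against 1.67 and 2.11, and neither passed the test (adjusted p = 0.0727 and 0.130). The median of the list was −0.10.

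Of 21 receptor and R-spondin genes, 12 were tested and limma called 0, with 5 at an unadjusted p under 0.05, 2 of them higher and 3 lower. The counts were 1 higher and 4 lower under median-of-ratios scaling, and 1 and 3 under quantile normalization. In all 5 were above 0 and 7 below, with a median of −0.10 that turned to 0.05 without empty vector library 2. No R-spondin reached an FPKM of 1 in any library. Beside LGR6, the smallest p-values were those of ROR1, a receptor of signalling without β-catenin, at 1.61 and 1.44 FPKM with ZSCAN18 and 3.15 and 3.85 without (adjusted p = 0.0604), and of FZD7, at 15.4 and 16.3 against 18.3 and 19.8 (adjusted p = 0.125). FZD6 was the most abundant Frizzled, at 25.7 and 23.8 with ZSCAN18 and 21.2 and 20.04 without (adjusted p = 0.128). The co-receptor LRP6 was at 7.17 and 6.66 against 5.78 and 5.98 (adjusted p = 0.179).

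Of the secreted and membrane antagonists, 5 were tested and limma called 0, with 2 lower at an unadjusted p under 0.05. In all 3 were below 0 and 2 above, with a median of −0.41, which was −0.20 without empty vector library 2 and −0.27 without ZSCAN18 library 2. NOTUM, a WNT-inactivating enzyme that is itself a feedback target, was at 0.316 and 0.247 FPKM with ZSCAN18 and at 1.34 and 1.25 without. The groups lay well apart, but the difference of −0.84 on the log2(FPKM + 1) scale did not pass the test (limma, adjusted p = 0.0539). It passed under median-of-ratios scaling (adjusted p = 0.0467), and without the trend or with quantile normalization, but under none of the other alternatives. DKK1, the most abundant antagonist and another WNT target, was at 13.4 and 15.5 with ZSCAN18 and at 12.4 and 13.7 without, which overlap (adjusted p = 0.417). The DKK co-receptors KREMEN1, at 8.21 and 6.50 against 9.38 and 10.8, and KREMEN2, at 0.731 and 0.799 against 1.03 and 1.71, did not pass either (adjusted p = 0.165 and 0.232). NOTUM and KREMEN2 met the filter of FPKM 1 only through the empty vector libraries, which favours a difference below 0. The median of the list is the difference of KREMEN2 itself, so nothing is read from its direction.

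In the destruction complex and cytoplasmic list, 13 of 17 tested genes were above 0 and 4 below, with a median of 0.14 on the log2(FPKM + 1) scale. Without overlap, 10 were higher with ZSCAN18 and 3 lower, beside 35.8% higher and 24.4% lower among all tested genes. Under median-of-ratios scaling 10 were above 0 and 7 below. limma called 0 of them, with 7 higher and 1 lower, NKD2, at an unadjusted p under 0.05. Of all tested genes, 26.8% lay under that p. The counts were 4 higher and 2 lower under median-of-ratios scaling, and 5 and 1 under quantile normalization. NKD2, whose levels stand beside those of NKD1, had a difference of −0.31 (SE 0.103, adjusted p = 0.164). It met the filter only through the empty vector libraries, which favours a difference below 0. The smallest p-values were those of TNKS2, which marks AXIN for degradation, at 17.8 and 15.9 FPKM with ZSCAN18 and 12.4 and 11.9 without (adjusted p = 0.0771), BTRC, which targets β-catenin for degradation (adjusted p = 0.0812), and GSK3A (adjusted p = 0.0866). CTNNB1, the gene of β-catenin, was at 14.7 and 15.1 with ZSCAN18 and at 13.6 and 15.8 without. These values overlap, and the difference of 0.03 (SE 0.089, adjusted p = 0.866) turned to −0.019 under median-of-ratios scaling. APC was under the filter, at 0.551 and 0.347 against 0.271 and 0.332.

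Of 13 tested nuclear factors 9 were above 0 and 4 below, with a median of 0.08. limma called 0, with 4 higher and 0 lower at an unadjusted p under 0.05. Under median-of-ratios scaling the median was 0.04, with 3 higher and 1 lower at that p. Quantile normalization gave a median of 0.03, with 4 higher and 0 lower. The coactivator CREBBP was at 8.70 and 8.30 FPKM with ZSCAN18 and at 5.68 and 6.37 without (adjusted p = 0.0807). CHD8, which restrains β-catenin, was at 3.70 and 3.56 against 2.36 and 2.73 (adjusted p = 0.104), and HBP1, a repressor of TCF activity, at 2.45 and 2.77 against 1.79 and 1.904 (adjusted p = 0.124).

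Of 14 tested genes among the other WNT targets, 1 fell, 0 rose, 5 were above 0 and 9 below, with a median of −0.10. At an unadjusted p under 0.05 there were 1 higher and 2 lower, and 0 higher and 5 lower under either median-of-ratios scaling or quantile normalization. BAMBI, a pseudoreceptor that blocks TGF-beta signalling, was at 49.0 and 51.5 FPKM with ZSCAN18 and at 78.4 and 79.8 without, and fell by 0.65 on the log2(FPKM + 1) scale (SE 0.050, limma, adjusted p = 0.0357). Its level stood close to that of AXIN2, whose difference was −0.53. KLF5, of the stem marker list, also had a difference of −0.53, so nothing is read from this likeness. TNFRSF19 was at 11.2 and 7.10 with ZSCAN18 and at 21.7 and 20.5 without, a difference of −1.15 (SE 0.218, adjusted p = 0.0819), and JUN was at 11.5 and 11.6 against 9.59 and 10.4 (adjusted p = 0.171). CCND1, the gene of cyclin D1, named after its values were seen, was at 105 and 104 with ZSCAN18 and at 103 and 106 without, a difference of 0.01. MYC, also named for its values, stood apart in ZSCAN18 library 1: it was at 30.5 there and between 2.40 and 4.22 in the other 3 libraries. SP5, a WNT target that was likewise chosen after its values were seen, was at 7.28 and 7.12 against 7.88 and 8.91, a difference of −0.19.

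Of 13 tested stem and progenitor markers outside the 10 genes, 2 fell and 0 rose, with 3 above 0, 10 below 0 and a median of −0.08. AQP5, a water channel that marks stem cells of the gastric antrum, was at 5.63 and 5.07 FPKM with ZSCAN18 and at 11.7 and 10.8 without. It fell by 0.95 on the log2(FPKM + 1) scale (SE 0.083, limma, adjusted p = 0.0383), and its antisense neighbour AC025154.2 was at 0.169 and 0.143 against 1.05 and 0.798. KLF5, a transcription factor of proliferating gut epithelium, was at 63.0 in both ZSCAN18 libraries and at 94.0 and 89.5 in the others, and fell by 0.53 (SE 0.048, adjusted p = 0.0390). SOX4 was at 9.36 and 8.77 against 10.3 and 10.2 (adjusted p = 0.202). OLFM4, SMOC2 and PROM1, markers of the intestinal stem cell like LGR5 that were chosen later for their low values, were under 0.05 FPKM in all libraries. CCKBR, of the same list, was at 0.0001 in all libraries, and MSI1 was at 0.0001 in empty vector library 2. Some other markers of the list had signal in every library. BMI1 was at 23.1 and 21.9 with ZSCAN18 and at 21.0 and 21.5 without, and LRIG1 at 1.25 and 1.26 against 1.45 and 1.32.

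**Figure D4:**
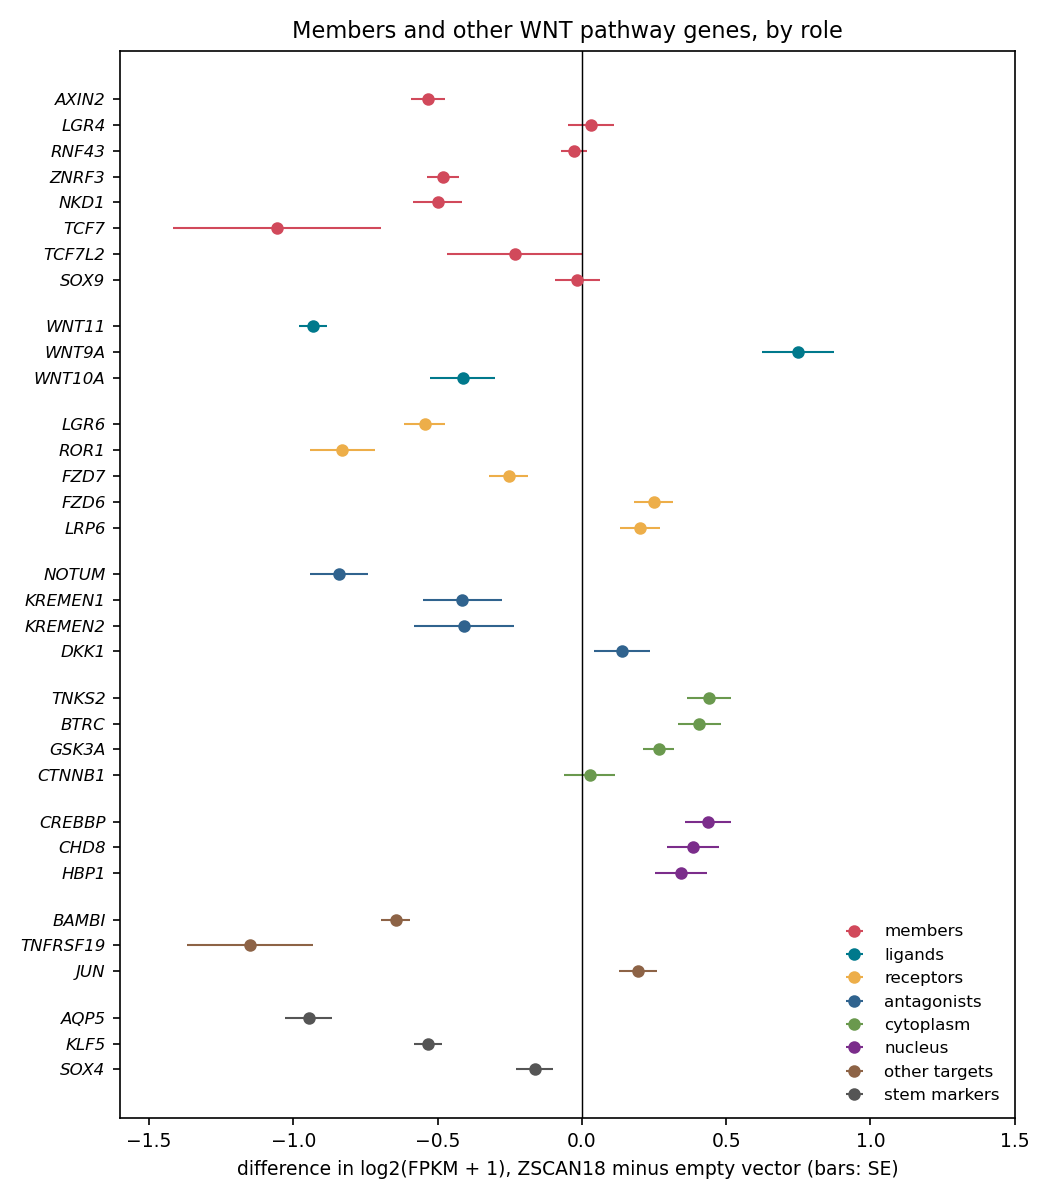
Difference in log2(FPKM + 1), ZSCAN18 minus empty vector, with its standard error (n = 2 libraries per group) for the 8 tested members and for named genes of each role list. Among the named genes, AXIN2, ZNRF3 and NKD1 lie between −0.53 and −0.48, and the cytoplasmic and nuclear genes drawn lie above 0, CTNNB1 by 0.03 (−0.019 under median-of-ratios scaling); NKD2, of the cytoplasmic list, is not drawn and stood at −0.31.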

How the data were processed

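RNA of NCI-N87 cells was sequenced in 4 libraries, 2 per group. Per the submitters' processing notes, the authors' tools included HISAT2 2.0.4, DESeq2, edgeR 3.2.5, StringTie 1.3.4d, FastQC 0.10.1 and cutadapt 1.9, with no roles given. Per the file headers, the authors deposited an FPKM per library for 60612 genes and a log2 fold change. That deposited log2 value equalled the log2 ratio of summed FPKM, with 0 genes differing by more than 0.001. The 2 ZSCAN18 columns were assigned by elimination. No source used here names the genome build; of 58394 identifiers found in GENCODE release 29, 72.7% had the same start and end, so coordinates are given as GRCh38. Counts could not be recovered from FPKM, since a whole number of fragments, within 0.05, was found for just 29.8 to 31.0% of low values.

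Genes reaching FPKM 1 in 2 or more libraries were fitted with limma 3.58.1 (R 4.3.3) on log2(FPKM + 1), a pseudocount of 1, with a group term and an intensity trend. P-values are two-sided and adjusted by Benjamini-Hochberg over all 11822 genes, threshold 0.05. The members and the role lists were chosen with earlier results of these data known. All members are named; from each role list the text takes every called gene, or the smallest p-values up to 3 in all, the most abundant ligand, Frizzled and antagonist, and CTNNB1, APC, LRP6, LEF1 and LGR6. Paralogs, overlapping neighbours and a few genes said to be chosen later are named besides. Alternatives were another pseudocount, no filter, median-of-ratios and quantile scaling, no trend, a replicate block and each library left out. Proteins were not compared.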

Additional observations from a re-analysis of the deposited data

How the results depend on the processing

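AXIN2, ZNRF3, NKD1, TCF7 and RNF43 stayed below 0 under all 10 alternatives, at −0.58 to −0.48, −0.53 to −0.45, −0.69 to −0.45, −1.55 to −0.56 and −0.07 to −0.01 on the log2 scale. TCF7L2 was below 0 in 9 (−0.54 to 0.07), SOX9 in 8 (−0.09 to 0.06) and LGR4 in 3 (−0.03 to 0.08). Most of these alternatives could not have turned a sign. Dropping the filter or the trend, or adding the replicate block, leaves every difference as it was. For AXIN2, ZNRF3, NKD1, TCF7 and RNF43, whose groups do not overlap, another pseudocount or a library left out cannot turn the sign either. For these genes only median-of-ratios scaling and quantile normalization could have done so. The median of the 8 members, −0.36, ran from −0.52 to −0.26 when 1 library was left out. The counts of calls were far less stable. Against 209 genes called, 1 was called without the filter on low FPKM, 99 without the trend (96 of them among the 209), 1 under the replicate block, and 0 to 1 without 1 library; where 1 was called it was ZSCAN18. Without a library, 2106 to 2387 genes still had an unadjusted p under 0.05, and 3174 in the full fit. Against 4 other pathway genes called, 0 were called without the filter, 2 without the trend (WNT11 and NOTUM), 0 under the replicate block and 0 without any 1 library. The count of members past the threshold, 1, was 0 in these and with a pseudocount of 0.1. Both scalings gave 2 members and 6 pathway genes, LGR6 and NOTUM beside the 4. Median-of-ratios scaling called 93 genes higher and 193 lower, 67.5% lower against 55.0%. CTNNB1 turned to −0.019 under it, and without 1 library it ran from −0.074 (empty vector library 1) to 0.13. The cause of these shifts was not tested. Same-numbered libraries did not deviate together (r = 0.034 across 11822 genes, which are not independent). This single correlation cannot tell whether libraries shared a culture, day or batch, since the columns are matched by number only.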
